A study of Mus musculus with 16 samples.

Results

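The 9 genes described here act in the repair of breaks in DNA. Brca1, Bard1, Brip1, Rad51c, Fignl1, Exo1 and Top3a belong to homologous recombination, Xrcc5 to end joining, and Parp1 to the sensing of strand breaks. They were picked by symbol from a table of 5921 genes, and all 9 passed a filter on low values that kept 2620 genes for testing. The RNA came from E11.5 mouse ventricles and was sequenced as 16 libraries in 4 groups of 4. In batch 1 the exon 2-3 controls stand against the exon 2-3 cKO, a conditional knockout in which Xmlc2-Cre removes exons 2 and 3 of Atf4 in cardiomyocytes. In batch 2 the exon 2 controls stand against the exon 2 cKO, in which the same Cre removes exon 2 only. The genotype label of every library, cKO included, reads C57BL/6 WT, so the groups rest on the sample titles. Whether the controls carried a floxed allele or the Cre is not given. The Xmlc2 promoter is used to drive Cre in cardiomyocytes, whether Atf4 was lost in these or other cells was not analysed here, and each line is also its own batch. The extraction protocol in the labels names cortical neurons, but cardiomyocyte genes were at high levels in all libraries: the 5 of the list that were held (Tnnt2, Tnni1, Myl4, Myl7 and Pln) summed to between 12400 and 18400 TPM.

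Homologous recombination rebuilds a double-strand break from an intact copy, usually the sister chromatid, and therefore works mainly in cells that have replicated their DNA. The ends are first cut back to single strands, these pair with the intact copy, and the joined molecules are separated again. End joining reseals the ends without a copy and is open to cells at any stage of the cycle. The embryonic ventricle at this stage is a tissue of dividing cells, and genes of recombination are known to be transcribed with those of DNA replication. ATF4 is a transcription factor of the integrated stress response, which is set off by amino acid shortage and by unfolded protein.

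Values are TPM as the authors computed them, a unit that corrects for transcript length and scales each library to a fixed total. Tests were made with limma on log2(TPM + 1), and a gene is said to have risen or fallen only where its p-value, adjusted over all 2620 genes, was under 0.05. In the exon 2-3 line Fignl1, Bard1 and Rad51c fell, by 0.49, 0.37 and 0.37 on the log2 scale. The other 6 members did not pass, Brca1 with a log2 fold change of -0.26 being the nearest. Over all genes limma called 6.72% in this line, and 2.56% in the lower direction. With 1 library left out, Bard1 kept its call in 3 of 8 fits and Rad51c in 2 of 8. In the exon 2 line none of the 9 passed, where limma called 0.0763% of all genes. Between the lines the effect on Fignl1 and Bard1 differed, where limma called 2.37% of all genes. The difference for Bard1 was kept in 4 of 16 fits with 1 library left out.

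Promoter sequence is shown for the 3 genes that fell, from RefSeq on GRCm38.p6. Capitals mark 2 kinds of short motif known from genes of the cell cycle: the E2F motif, searched as TTTGGCGC, TTTCCCGC, TTTGCCGC or TTTCGCGC, and the CHR motif, searched as TTTGAA or TTCGAA. Each was searched on both strands of the stretch from 250 bases before to 50 after the RefSeq start, and the motifs were chosen after the sequences and the changes had been seen. Rad51c has 2 starts in the table, and the runs shown hold the matches of each promoter.
Fignl1, chr11:11808933-11809082, minus strand: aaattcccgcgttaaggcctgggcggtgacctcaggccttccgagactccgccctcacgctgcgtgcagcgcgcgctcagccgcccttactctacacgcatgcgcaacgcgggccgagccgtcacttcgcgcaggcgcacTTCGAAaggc
Bard1, chr1:71103073-71103222, minus strand: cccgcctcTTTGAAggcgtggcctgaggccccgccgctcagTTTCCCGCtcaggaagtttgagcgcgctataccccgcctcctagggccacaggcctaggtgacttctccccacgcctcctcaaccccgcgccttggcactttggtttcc
Rad51c, chr11:87404477-87404626, minus strand: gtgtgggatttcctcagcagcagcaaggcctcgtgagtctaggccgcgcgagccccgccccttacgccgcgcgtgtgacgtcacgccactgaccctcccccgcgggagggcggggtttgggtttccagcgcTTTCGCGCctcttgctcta
Rad51c, chr11:87404925-87405074, minus strand: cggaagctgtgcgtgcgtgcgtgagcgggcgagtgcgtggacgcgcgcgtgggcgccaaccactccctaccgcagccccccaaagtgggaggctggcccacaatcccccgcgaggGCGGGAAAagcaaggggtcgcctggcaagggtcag

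Distances are counted from the start in the promoter table, which can lie inside the gene's outer bounds. Bard1, with its start at 71102972, has an E2F match that begins 209 bases before it and a CHR match that begins 242 bases before it, and the gene's outer bound is 71103141. Fignl1 has a CHR match that begins at base 21 from a start at 11808962. Rad51c has an E2F match at base 12 from the start at 87404506, and one on the other strand that begins 5 bases before the start at 87404954. Of 32851 promoters in the table, 2.26% hold the E2F motif, 19.2% hold the CHR motif and 21.2% hold either. The promoters of Brca1, Brip1, Xrcc5 and Parp1 hold none of these letters, and Exo1 and Top3a were not matched. The ATF4 motif TGATGNAA, found in 3.97% of promoters, is in none of the member promoters searched. A match describes the letters in the window and was not tested for any role in the changes.

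The level of the members spanned from 3.53 TPM for Brip1 to 107 TPM for Parp1, as means over the 16 libraries, where the median of the genes tested was 15.9 TPM. In the exon 2-3 controls the order was Parp1, Fignl1, Xrcc5, Exo1, Brca1, Rad51c, Top3a, Bard1 and Brip1. Neighbours in that order overlapped between libraries for Exo1 with Brca1 and for Top3a with Bard1, and were separate elsewhere. In the exon 2-3 cKO Rad51c stood below Top3a, with libraries that overlapped, and in both exon 2 groups Bard1 stood above Top3a and Rad51c, again with overlap between neighbours. Parp1, Fignl1 and Xrcc5 led in that order in all 4 groups, and Brip1 came last in all 4.

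**Figure D1:**
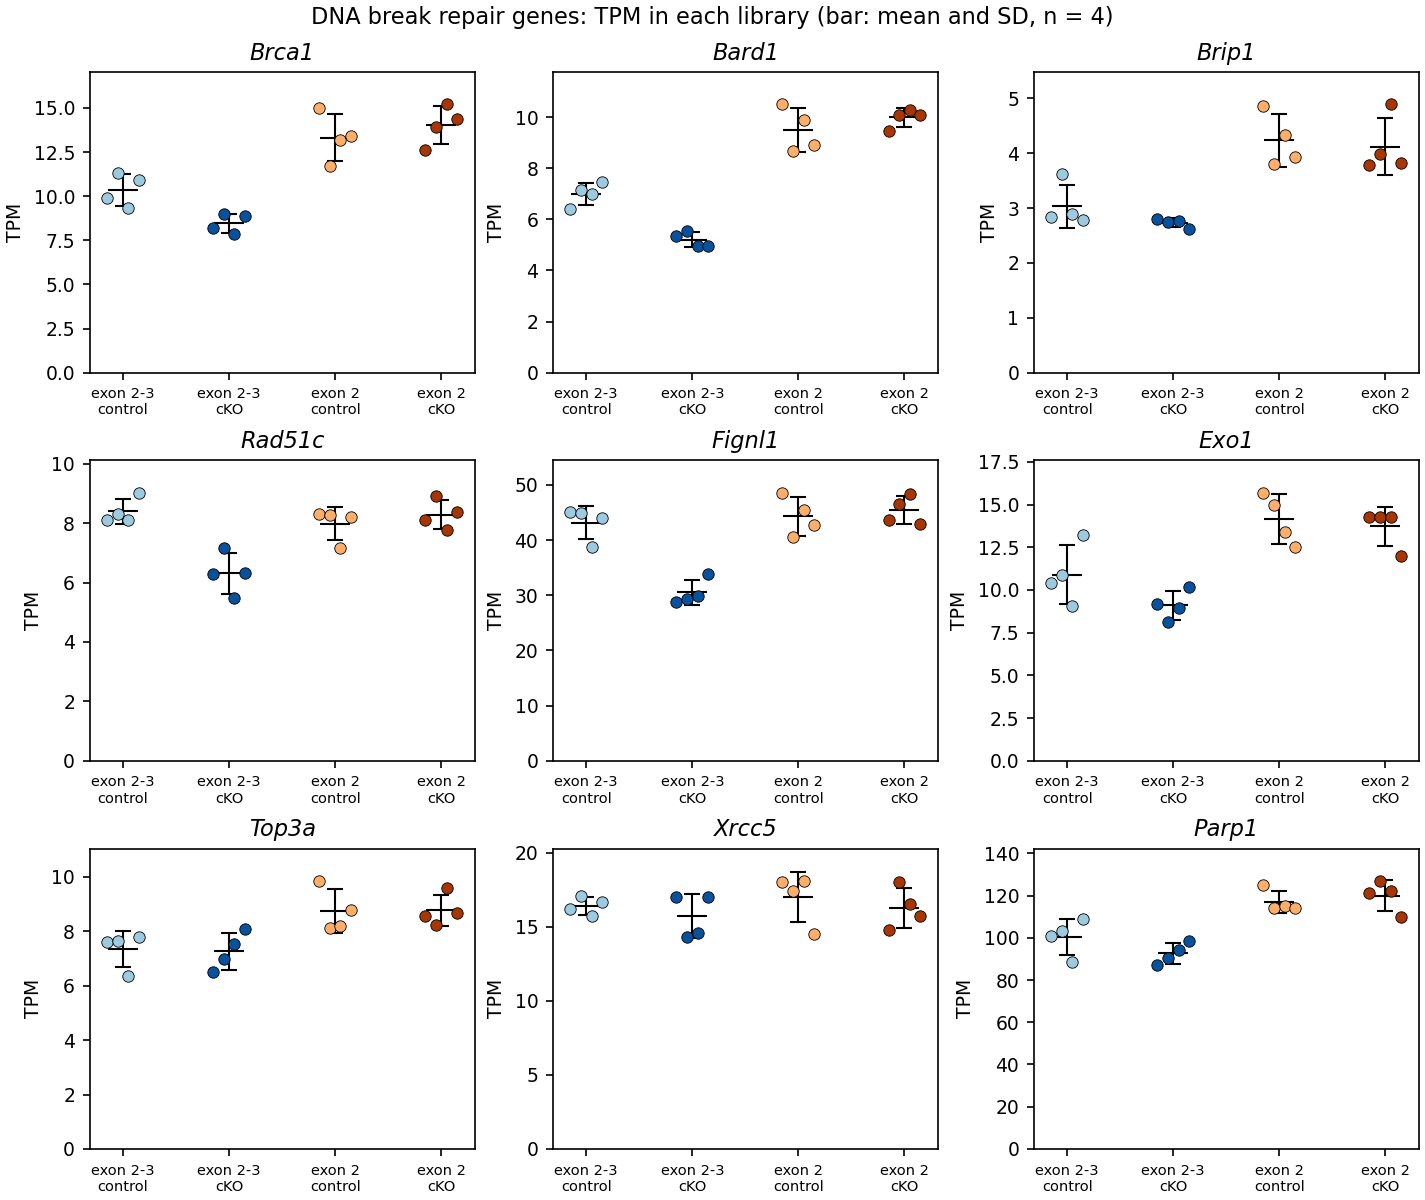
TPM of the 9 genes (vertical axes, each from 0) in each of the 16 libraries, by group; points are libraries and bars the mean with SD of 4. In the exon 2-3 line all 4 cKO libraries of Fignl1, Bard1, Rad51c and Brca1 lie below all 4 controls, while in the exon 2 line the groups of every gene overlap.

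The first comparison asked how the genes of the BRCA1 complex changed when exons 2 and 3 were deleted. BRCA1 and its partner BARD1 form a ubiquitin ligase that directs breaks into recombination, and BRIP1 is a helicase that binds BRCA1. Bard1 (chromosome 1, 71027535 to 71103141, GRCm38.p6) measured 6.41, 7.15, 6.99 and 7.45 TPM in the controls and 5.33, 5.55, 4.95 and 4.96 TPM in the cKO. Every cKO library was lower than every control. The means were 7.0 ± 0.438 and 5.20 ± 0.295 TPM (SD, n = 4 each), a log2 fold change of -0.37 (SE 0.079, 95% interval -0.55 to -0.19, limma adjusted p 0.0261). That call was lost on dropping any of 5 of the 8 libraries, namely control replicates 2 or 4 or cKO replicates 1, 3 or 4, with limma adjusted p-values up to 0.0808.

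Brca1 (chromosome 11, 101488761 to 101551955) measured 9.89, 11.3, 9.33 and 10.9 TPM in the controls and 8.21, 8.99, 7.84 and 8.85 TPM in the cKO. The groups did not overlap. Its log2 fold change of -0.26 (SE 0.082, interval -0.44 to -0.07) had a limma adjusted p of 0.0995 and was not called, although it passed after quantile normalisation (limma adjusted p 0.0135) and after centring each library on its median (0.0137). Brip1 (chromosome 11, 86058136 to 86201215) measured 2.83, 3.62, 2.90 and 2.78 TPM in the controls and 2.80, 2.74, 2.77 and 2.61 TPM in the cKO. One control stood above the rest and the groups overlapped. Its log2 fold change was -0.11 (SE 0.096, interval -0.32 to 0.11, limma adjusted p 0.573), and a pseudogene on the other strand, Atp5l-ps2, lies within it, so its value is uncertain.

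Rad51c and Fignl1 act in the middle steps of recombination. The product of Rad51c works in strand pairing, and FIGNL1 is an ATPase of the AAA family. Fignl1 (chromosome 11, 11800288 to 11808983) measured 45.0, 44.9, 38.8 and 44.0 TPM in the controls and 28.8, 29.4, 29.9 and 33.9 TPM in the cKO. The highest cKO library lay below the lowest control. From 43.2 ± 2.96 to 30.5 ± 2.30 TPM (SD, n = 4 each), the log2 fold change was -0.49 (SE 0.071, interval -0.65 to -0.33, limma adjusted p 0.00463). The call held on dropping any 1 of the 8 libraries, with limma adjusted p-values between 0.00249 and 0.0213.

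Rad51c (chromosome 11, 87376645 to 87404954) measured 8.11, 8.32, 8.12 and 9.03 TPM in the controls and 6.28, 7.17, 5.47 and 6.31 TPM in the cKO. The groups were again separate. The means of 8.39 ± 0.437 and 6.31 ± 0.695 TPM (SD, n = 4 each) gave a log2 fold change of -0.37 (SE 0.088, interval -0.56 to -0.17, limma adjusted p 0.0368). This call was lost on dropping any of 6 of the 8 libraries, all but control replicate 3 and cKO replicate 2, with limma adjusted p-values up to 0.108. It was also lost with all genes of low level kept in the test (limma adjusted p 0.0732).

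Exo1 and Top3a act at the beginning and at the end of recombination. EXO1 is a nuclease that cuts the ends back and also serves mismatch repair, and TOP3A is a topoisomerase that, with the BLM helicase, takes joined molecules apart. Exo1 (chromosome 1, 175880768 to 175911396) measured 10.4, 10.9, 9.05 and 13.2 TPM in the controls and 9.16, 8.13, 8.96 and 10.2 TPM in the cKO. The groups overlapped, and the log2 fold change was -0.23 (SE 0.11, interval -0.47 to 0.02, limma adjusted p 0.282). Exo1 shares its strand with the small gene Gm23805, which overlaps it. Top3a (chromosome 11, 60738209 to 60777365) measured 7.60, 7.64, 6.35 and 7.78 TPM in the controls and 6.49, 6.99, 7.52 and 8.07 TPM in the cKO, with the groups intermixed. Its log2 fold change was -0.01 (SE 0.092, interval -0.22 to 0.19, limma adjusted p 0.967), a value whose sign turned on dropping any of 5 of the 8 libraries.

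Neither of the genes outside recombination passed the test. XRCC5, also called Ku80, is the larger subunit of the Ku ring that caps broken ends for end joining. Xrcc5 (chromosome 1, 72307417 to 72394953) measured 16.2, 17.1, 15.7 and 16.7 TPM in the controls and 17.0, 14.3, 14.6 and 17.0 TPM in the cKO. In the cKO 2 libraries lay below all controls and 2 lay among them, and the log2 fold change was -0.07 (SE 0.076, interval -0.24 to 0.10, limma adjusted p 0.673). PARP1 binds strand breaks and marks nearby proteins with poly(ADP-ribose). Parp1 (chromosome 1, 180568891 to 180600999) measured 101, 103, 88.4 and 109 TPM in the controls and 87.3, 90.3, 94.2 and 98.5 TPM in the cKO. The groups overlapped through control replicate 3, and the log2 fold change was -0.11 (SE 0.070, interval -0.27 to 0.04, limma adjusted p 0.394). It passed only after centring each library on its median (-0.16, limma adjusted p 0.0231). Mir6904 on its own strand and Gm31986 on the other overlap Parp1, so its value is uncertain on that ground.

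In all, 3 of the 9 members were called lower in the exon 2-3 cKO, where limma called 6.72% of the 2620 genes and 2.56% in the lower direction. All cKO libraries lay below all controls for 4 of the 9, against 5.31% of the genes tested (14.5% when either direction is counted). The log2 fold change was below 0 for each of the 9, with a median of -0.23, against 41.5% of the genes and a median of 0.03. The split of all called genes moved with the scaling, from 61.9% higher in the values as deposited to 41.4% after centring on the median and 50.8% after quantile normalisation. Under these scalings the members' log2 fold changes remained below 0 in all 9, and the members called were 5 and 4 in number. Over all genes limma called 343 after centring and 305 after quantile normalisation, against 176 in the values as deposited.

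**Figure D2:**
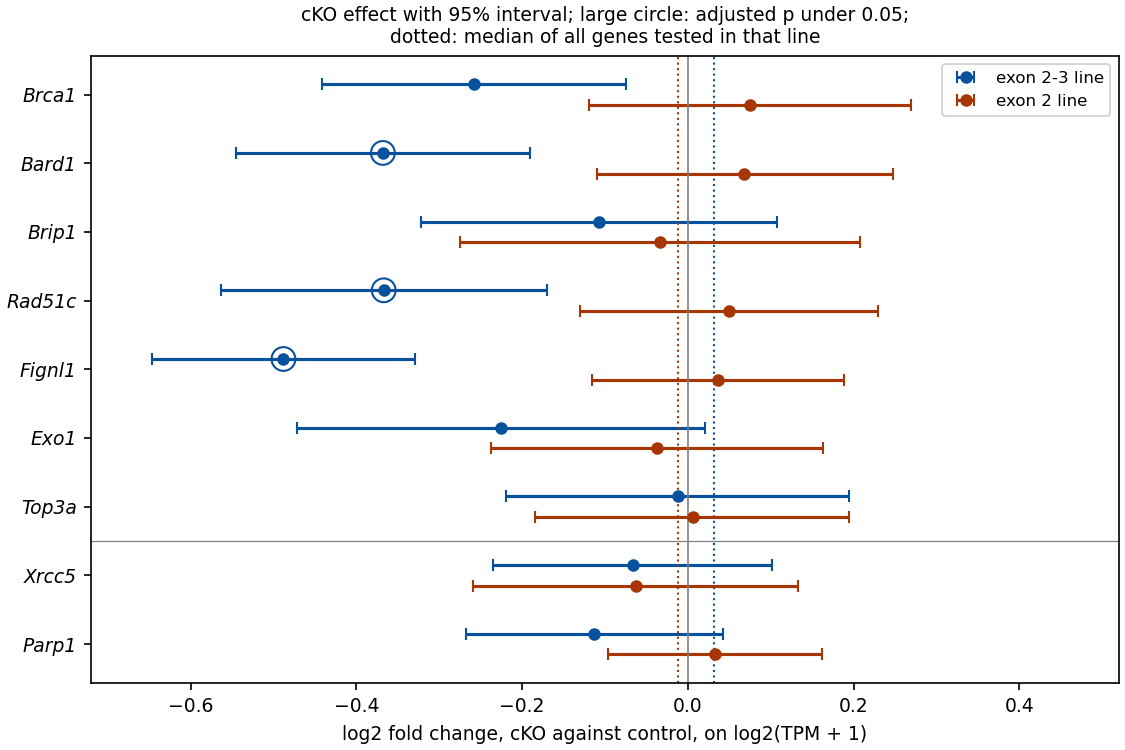
Log2 fold change of each gene, cKO against control (horizontal axis, log2(TPM + 1) scale), with its 95% interval in the exon 2-3 line and in the exon 2 line. Large circles mark Fignl1, Bard1 and Rad51c, which passed an adjusted p of 0.05 in the exon 2-3 line, and dotted lines mark the median of all genes tested in each line (0.03 and -0.01).

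In the exon 2 line the same genes were compared where exon 2 alone had been deleted. No member was called by limma, and none had an unadjusted p under 0.05, which 84 of the 2620 genes (3.21%) had. Limma called 0.0763% of all genes in this line. Fignl1 measured 48.6, 40.5, 45.4 and 42.7 TPM in the controls and 43.6, 46.5, 48.4 and 43.0 TPM in the cKO. The groups overlapped, and the log2 fold change was 0.04 (SE 0.069, interval -0.12 to 0.19), so the interval did not reach the -0.49 of the other line. Bard1 measured 10.5, 8.66, 9.88 and 8.93 TPM in the controls and 9.46, 10.1, 10.3 and 10.1 TPM in the cKO, a log2 fold change of 0.07 (interval -0.11 to 0.25). Rad51c measured 8.30, 8.26, 7.15 and 8.20 TPM in the controls and 8.10, 8.90, 7.77 and 8.38 TPM in the cKO, a log2 fold change of 0.05 (interval -0.13 to 0.23). In each of these genes the cKO libraries lay among or beside the controls.

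Brca1, at 15, 11.7, 13.2 and 13.4 TPM in the exon 2 controls, stood at 12.6, 13.9, 15.2 and 14.4 TPM in the exon 2 cKO (log2 fold change 0.07, interval -0.12 to 0.27). The remaining 5 members had log2 fold changes between -0.06 and 0.03. Xrcc5 was the lowest of them, at 18, 17.4, 18.1 and 14.5 TPM in the controls and 14.8, 18, 16.5 and 15.7 TPM in the cKO. Parp1 measured 125, 114, 115 and 114 TPM in the controls and 121, 127, 122 and 110 TPM in the cKO. Exo1 ranged from 12.5 to 15.7 TPM in the controls and from 12.0 to 14.3 TPM in the cKO, Top3a from 8.14 to 9.86 and from 8.25 to 9.58 TPM, and Brip1 from 3.80 to 4.86 and from 3.79 to 4.89 TPM. The groups of every member overlapped here, where 1.83% of the genes tested had groups that did not.

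Whether the knockout acted differently in the lines was tested by the interaction term over all 16 libraries, the effect in the exon 2-3 line minus that in the exon 2 line. Limma called 2.37% of all genes by this term and 0.763% in the lower direction, and 2 of the 9 members were among them. Fignl1 had a term of -0.52 (SE 0.099, interval -0.73 to -0.31, limma adjusted p 0.00775), which held on dropping any 1 of the 16 libraries. Bard1 had a term of -0.44 (SE 0.11, interval -0.66 to -0.21, limma adjusted p 0.0395). It was lost on dropping any of 12 of the 16, and remained only without exon 2-3 control replicate 1, exon 2-3 cKO replicate 2, exon 2 control replicate 1 or exon 2 cKO replicate 1, with limma adjusted p-values up to 0.0844. Rad51c (-0.42, SE 0.11, limma adjusted p 0.0685) and Brca1 (-0.33, SE 0.12, limma adjusted p 0.169) did not pass in the values as deposited. Both passed after quantile normalisation (limma adjusted p 0.025 and 0.0105) and after median centring (0.032 and 0.0207). Over all genes limma then called 133 and 127, against 62 in the values as deposited. Rad51c also passed when libraries were rescaled without hemoglobin genes (limma adjusted p 0.0485), without the intensity trend (0.0487) and without exon 2-3 cKO replicate 2 (0.0405). The terms of Exo1 (-0.19), Parp1 (-0.15), Brip1 (-0.07), Top3a (-0.02) and Xrcc5 (-0.004) did not pass, and the interval for Xrcc5 ran from -0.25 to 0.24.

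To contrast the recombination genes with Xrcc5 and Parp1 directly, the log2(TPM + 1) of the reference gene was subtracted in each library, and limma was fitted again over all other genes. A difference made in this way does not depend on how libraries are scaled to each other, apart from the added 1. Fignl1 stood 1.42, 1.34, 1.25 and 1.34 above Xrcc5 in the exon 2-3 controls and 0.73, 1.00, 0.98 and 0.96 above it in the cKO. Against Parp1 it stood at -1.15, -1.17, -1.17 and -1.29 in the controls and at -1.57, -1.58, -1.62 and -1.51 in the cKO. For either reference all cKO libraries were below all controls.

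Relative to Xrcc5 the change of Fignl1 was -0.42 (SE 0.079, interval -0.59 to -0.25, limma adjusted p 0.0107), and relative to Parp1 it was -0.38 (SE 0.048, interval -0.48 to -0.27, limma adjusted p 0.00113). Both held with each of the 8 libraries left out. Fignl1 was the 1 recombination gene of 7 that passed, where limma called 5.92% of all genes relative to Xrcc5 (0.84% lower) and 25.8% relative to Parp1 (1.83% lower). Bard1 changed by -0.30 relative to Xrcc5 (interval -0.54 to -0.06, limma adjusted p 0.132) and by -0.26 relative to Parp1 (interval -0.47 to -0.04, limma adjusted p 0.0817), neither called. Rad51c had nearly the same values, -0.30 (limma adjusted p 0.144) and -0.25 (0.0864), and passed relative to Xrcc5 when cKO replicate 2, in which Xrcc5 was lowest, was left out (limma adjusted p 0.0467). For Brca1 they were -0.19 and -0.15, for Exo1 -0.16 and -0.11, for Brip1 -0.04 and 0.01, and for Top3a 0.05 and 0.10. In the exon 2 line no recombination gene was called relative to Xrcc5 or to Parp1, none had an unadjusted limma p under 0.05, and limma called 0.0764% and 0.115% of all genes.

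**Figure D3:**
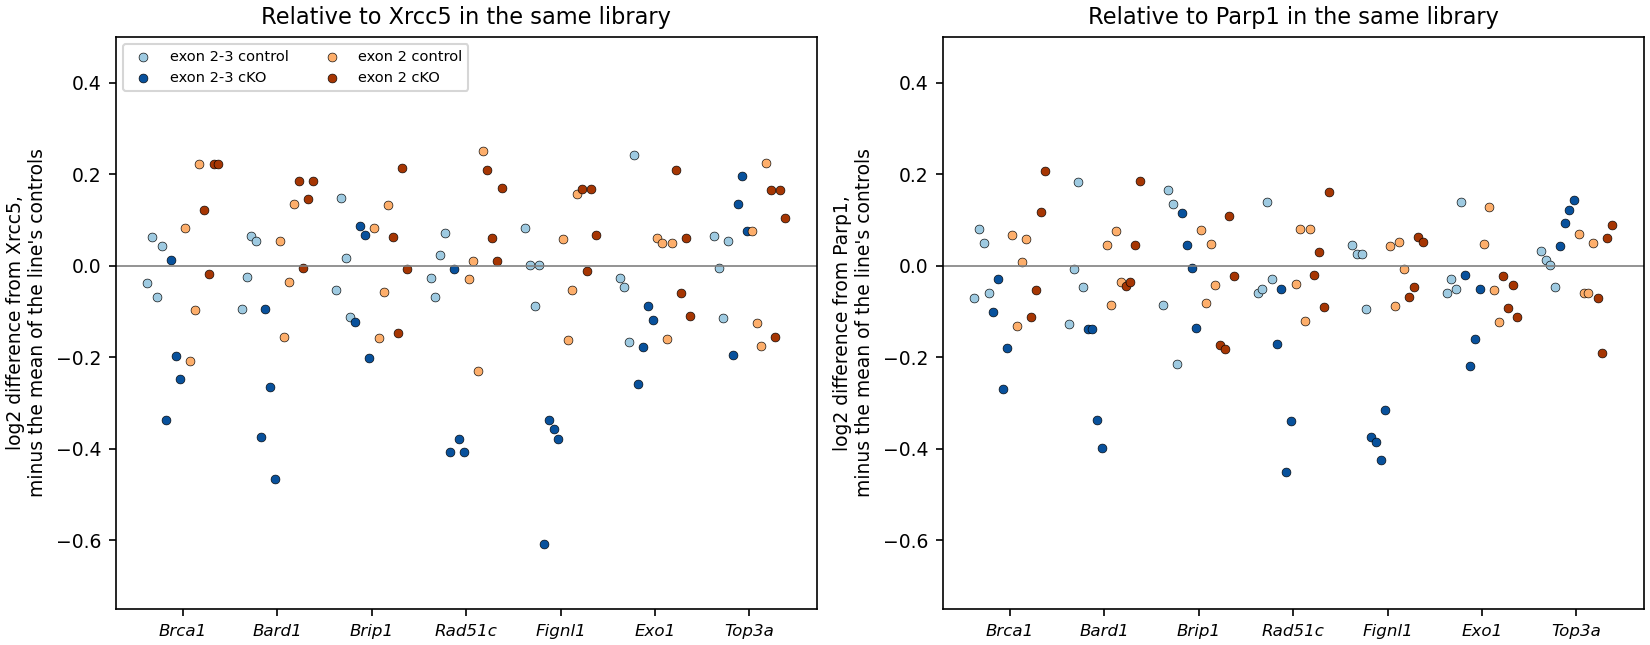
Log2(TPM + 1) of the 7 recombination genes minus that of Xrcc5 (left) or Parp1 (right) in the same library, set to 0 at the mean of each line's controls (vertical axis); points are libraries, coloured by group. The 4 exon 2-3 cKO libraries of Fignl1 lie below the other 12 in both panels, those of Brip1 lie on both sides of 0, and those of Top3a lie on both sides of 0 relative to Xrcc5 and above 0 relative to Parp1.

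How far members varied together between libraries of the same group differed from pair to pair. After the mean of each group was subtracted, the Pearson correlation over the 16 libraries was 0.71 between Brca1 and Bard1, 0.70 between Brca1 and Fignl1 and 0.64 between Brca1 and Brip1. For Rad51c it ranged from -0.23 with Brip1 to 0.31 with Brca1. For Parp1 it ranged from 0.15 with Rad51c and 0.17 with Bard1 to 0.79 with Fignl1 and 0.84 with Exo1. For Xrcc5 it ranged from 0.01 with Rad51c to 0.55 with Exo1, with 0.32 for Bard1 and for Brip1. The 21 pairs of recombination genes had a median of 0.31 (range -0.23 to 0.81), and the 14 pairs with Xrcc5 or Parp1 had a median of 0.32. These are descriptions without a test, and the libraries share their scaling, which moves all genes together. Values for pairs of genes outside the members are not given here for comparison. With the line means subtracted instead, so that the knockout effect stays in, the genes most like Brca1 were Cdk2 (0.88), Dtl (0.87) and Rap1gap2 (0.86). For Xrcc5 they were Med7 (0.85), Asf1a (0.83) and Mlx (0.80), and for Parp1 Eftud2 (0.91), Map2k2 (0.88) and G3bp1 (0.88), over the same 16 libraries.

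Other genes of the repair pathways were few among the rows used. Of 64 further recombination symbols, 13 were tested. In the exon 2-3 cKO, where limma called 2.56% of all genes lower and 6.72% in either direction, 1 fell. This was Rpa1, a subunit of the protein that coats single-stranded DNA, which went from 83.3 ± 7.18 to 68.7 ± 3.21 TPM (SD, n = 4 each). Its log2 fold change was -0.27, with a SE of 0.07 and a limma adjusted p of 0.0439. Rpa1 overlaps Smyd4, and its call was lost on dropping any library but control replicate 3 (largest limma adjusted p 0.131), with low genes kept in the test (0.115) and without the intensity trend (0.0788). Of the 13, 10 had a log2 fold change below 0, with a median of -0.14, against 41.5% below 0 and a median of 0.03 over all genes. Eme1, a partner of the MUS81 nuclease, had -0.29 (limma adjusted p 0.104) and Dna2, a nuclease of end resection, had -0.22 (0.162), and both passed after median centring (limma adjusted p 0.0205 and 0.0191) and after quantile normalisation (0.0198 and 0.0168). Psmc3ip, a cofactor of strand exchange, had -0.27 (limma adjusted p 0.22). Psmc3ip overlaps Mlx, and Eme1 overlaps Lrrc59 and Mrpl27.

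Of 21 Fanconi anaemia symbols, a pathway that opens DNA crosslinks and hands them to recombination, 2 were tested. Ube2t, its ubiquitin-conjugating enzyme, fell and measured 26.8 ± 1.95 TPM in the controls and 19.8 ± 2.79 TPM in the cKO (SD, n = 4 each). Its log2 fold change was -0.42, with a SE of 0.10 and a limma adjusted p of 0.0341, a call that was lost on dropping any library but cKO replicate 4 (largest limma adjusted p 0.0934) and with low genes kept in the test (0.104). Fancl, the matching ligase, had -0.18 (limma adjusted p 0.14). End joining was represented by the polymerase gene Polm (-0.10, limma adjusted p 0.679) and by Nhej1 (-0.07, limma adjusted p 0.755), and strand-break repair by the ligase gene Lig3 (0.01, limma adjusted p 0.958). Timeless, which stands on the strand-break and checkpoint lists, had -0.13 (limma adjusted p 0.394). Fancl overlaps Vrk2, Lig3 overlaps Rffl and Timeless overlaps Gm26847. The numbers of genes tested are too small to compare one pathway with another, and limma called 2.56% of all genes lower in the exon 2-3 cKO.

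Of 5 checkpoint genes tested, 1 was called in the exon 2-3 cKO, where limma called 6.72% of all genes in either direction. Mdm2, whose protein degrades p53, rose, with 37.7 ± 3.41 TPM in the controls and 48.2 ± 4.12 TPM in the cKO (SD, n = 4 each). Its log2 fold change was 0.35, with a SE of 0.08 and a limma adjusted p of 0.0361, a call that was lost on dropping any library but control replicate 4 and cKO replicate 2 (largest limma adjusted p 0.11), with low genes kept in the test (0.107) and without the intensity trend (0.0566). Trp53 itself had 0.12 (limma adjusted p 0.484) and Hus1, part of the ring clamp that signals damage, had -0.05 (0.755). No gene of these repair and checkpoint lists was called by limma in the exon 2 line, where it called 0.0763% of all genes.

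**Figure D4:**
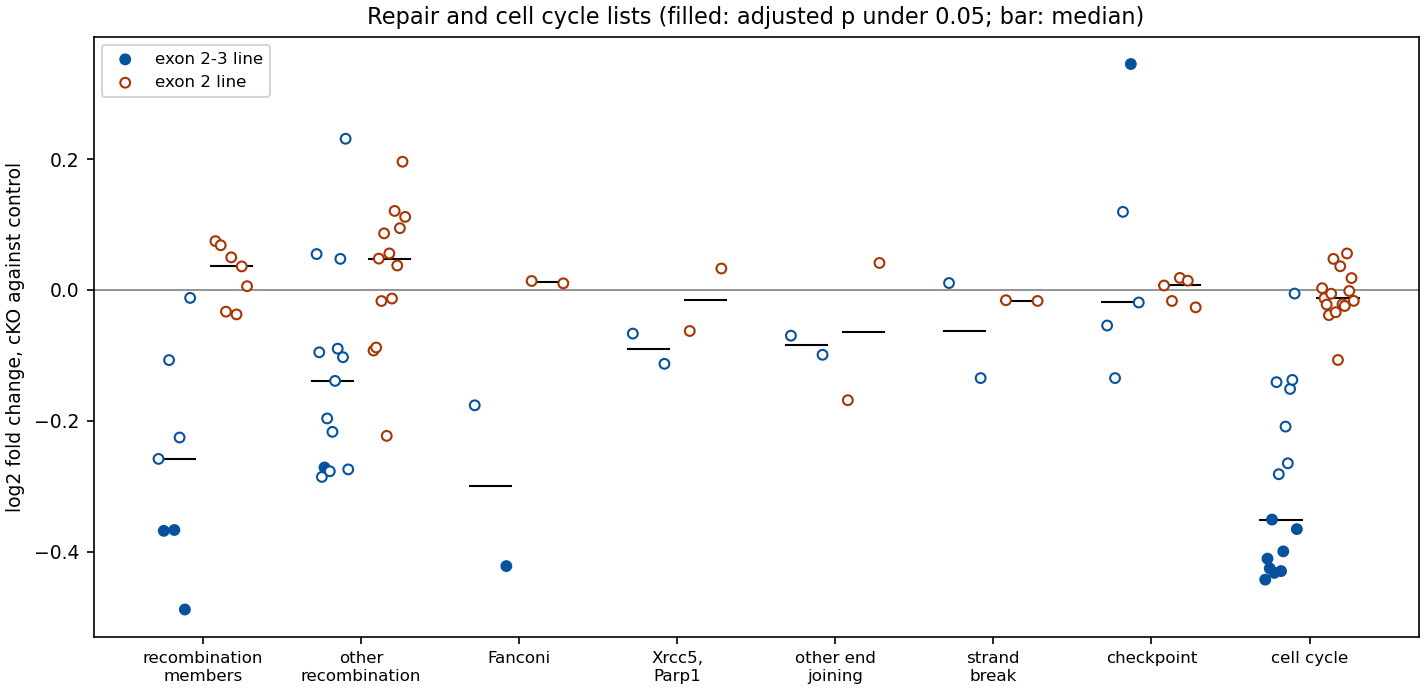
Log2 fold change, cKO against control (vertical axis), of each tested gene of the repair, checkpoint and cell cycle lists in the exon 2-3 line and the exon 2 line; filled points passed an adjusted p of 0.05 and bars are medians. The recombination members have a median of -0.26 in the exon 2-3 line and 0.04 in the exon 2 line, and the cell cycle genes have medians of -0.35 and -0.01.

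Some genes of S phase and mitosis also fell in the exon 2-3 cKO. Of 59 such symbols 15 were tested, and in the exon 2-3 cKO 8 fell, with all 15 below 0 and a median log2 fold change of -0.35. Limma called 2.56% of all genes lower in this line, and 41.5% of all genes lay below 0. Cdk1, the kinase that drives entry into mitosis, fell by 0.41 (limma adjusted p 0.00143), and the mitotic genes Nuf2 and Cenpf fell by 0.40 and 0.43 (limma adjusted p 0.00379 and 0.00816). Top2a, which untangles replicated chromosomes, fell by 0.44 (limma adjusted p 0.00213), and it overlaps LOC115487886. The summed level of the 15 genes lay between 647 and 713 TPM in the exon 2-3 controls and between 531 and 588 TPM in the cKO. For the exon 2 libraries it lay between 716 and 790 TPM in the controls and between 689 and 782 TPM in the cKO. In whole tissue, fewer dividing cells and less RNA per cell cannot be told apart.

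The members were therefore also measured against the mean log2(TPM + 1) of these 15 genes in the same library, a comparison chosen after seeing the data. In the exon 2-3 line Brca1 then changed by 0.04 (interval -0.11 to 0.19), Bard1 by -0.07 (-0.26 to 0.11), Rad51c by -0.07 (-0.25 to 0.11) and Exo1 by 0.07 (-0.14 to 0.28), and limma called none of these. Fignl1 was still lower, at -0.19 (interval -0.30 to -0.08, limma adjusted p 0.00702). Xrcc5 stood higher relative to the cell cycle genes, at 0.23 (limma adjusted p 0.015), as did Parp1, at 0.18 (0.0107), and Top3a, at 0.28 (0.00702). Brip1 had 0.19 and was not called (limma adjusted p 0.112). On this measure limma called 74.1% of all genes, in either direction.

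Markers of other cells were set beside these values. Of 16 epicardial and mesenchymal symbols 6 were held (Tcf21, Sparc, Col1a1, Col3a1, Dcn and Lum). In the exon 2-3 cKO 5 of the 6 rose, where limma called 6.72% of all genes, 61.9% of these higher. The sum of the 6 went from between 871 and 1050 TPM in the controls to between 1220 and 1310 TPM in the cKO. In the exon 2 groups it ranged from 1090 to 1350 TPM. The cardiomyocyte sum lay between 16900 and 18400 TPM in the exon 2-3 controls and between 16500 and 17400 TPM in the cKO, with none of its 5 genes called. The part of a change in cell makeup in the falls of Fignl1, Bard1 and Rad51c was not tested. The 4 erythroid genes held summed to between 2990 and 4550 TPM in the exon 2-3 controls but to 1540, 5920, 1510 and 11300 TPM in cKO replicates 1 to 4. Fignl1, Bard1 and Rad51c kept their calls when libraries were rescaled without the hemoglobin genes held. The beta globins of the erythroid list were not held, and the rescaling used only the held part of each library. It therefore could not take out the whole share of hemoglobin, and the part of red cell content in these changes was not tested. Of the endothelial markers 4 of 20 were held, summing to between 193 and 264 TPM over all libraries. Of the myeloid markers 5 of 14 were held, summing to between 60.9 and 91.9 TPM. None of those tested was called in either line, where limma called 6.72% (exon 2-3) and 0.0763% (exon 2) of all genes. No marker held was at 0 in all libraries.

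The levels of the members also differed between the controls of the lines, a difference in which line and batch cannot be told apart. In the values as deposited 6 of the 9 were lower in the exon 2-3 controls, where limma called 52.6% of all genes and 38.1% in the lower direction. Bard1 differed by -0.39 (limma adjusted p 0.000435), Brip1 by -0.38 (0.00424), Exo1 by -0.35 (0.00912), Brca1 by -0.33 (0.00357), Top3a by -0.22 (0.0385) and Parp1 by -0.22 (0.00886). The Top3a call was lost with low genes kept in the test (limma adjusted p 0.0539), after quantile normalisation (0.132), without hemoglobin genes (0.0558), and on dropping exon 2-3 control replicates 1 or 3 or exon 2 control replicates 1 or 4 (up to 0.131). That of Exo1 was lost after quantile normalisation (limma adjusted p 0.11). Fignl1 (-0.03), Xrcc5 (-0.04) and Rad51c (0.07) did not pass. The median of all genes was -0.14, and median centring moved it to 0.04. After that centring 3 members passed by limma, with Bard1 lower and Rad51c and Fignl1 higher in the exon 2-3 controls (adjusted p 0.0234 for Rad51c and 0.0111 for Fignl1). Limma then called 1263 of the 2620 genes, against 1377 in the values as deposited. Of all genes called, 27.5% were higher in the exon 2-3 controls in the values as deposited and 57.7% after centring.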

How the data were processed

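The authors deposited 1 table of TPM values with a column for each of 16 libraries, matched to samples through the names in the descriptions. The submitters' processing notes name FastQC, Trim Galore 0.6.7, HISAT2 2.2.1, StringTie 2.2.1 and featureCounts and the build GRCm38, without saying which made the TPM values. Use of the strand in counting is not given in the sources used here. TPM keeps no depth, so no counting interval is given. The rows used cover chromosomes 1 and 10 and part of 11 and hold 15.2% to 17.1% of a library's TPM; 1 cut-off line was left out. Atf4 was not analysed here, so directions rest on the labels. Of the 5921 rows, 5919 had the coordinates of RefSeq on GRCm38.p6.

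A gene was tested if its TPM averaged 1 or more. Tests were run on log2(TPM + 1), which understates changes of low genes, with limma 3.58.1 (intensity trend, two-sided) in R 4.3.3, after the procedure was tested on simulated data. Adjustment was Benjamini-Hochberg over every gene tested. The fit for a line used its 8 libraries, and interaction and controls used all 16. Nothing says that libraries came from separate litters, so p-values measure the spread between these libraries. Members and lists were chosen with earlier results of these data known. All 9 members are named, with up to 4 genes of smallest p in the exon 2-3 line from each repair, checkpoint and cell cycle list, and the 3 genes most correlated with Brca1, Xrcc5 and Parp1. Marker genes are named by list. Alternatives were another pseudocount, filter, scaling, fit, threshold or spread, the replicate number as a block, and each library left out. Summaries used pandas 2.3.3.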

Additional observations from a re-analysis of the deposited data

Results flagged for a closer look

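By the interaction term, the cKO effect was not the same in the exon 2-3 and exon 2 lines for Fignl1 (-0.52, limma adjusted p 0.00775) and Bard1 (-0.44, limma adjusted p 0.0395). Limma called 2.37% of all genes by this term. With 1 library left out, Fignl1 kept its call in 16 of 16 fits and Bard1 in 4 of 16. Line and batch cannot be told apart here.

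In 6 of the 36 sets of 4 libraries, 1 library stood apart by Dixon's criterion, which chance alone meets in about 5% of independent sets. The 36 sets share the same 16 libraries and their scaling, so they are not independent, and the share over all genes is not given here. Among the exon 2-3 controls the libraries apart were Brip1 in replicate 2 (3.62 TPM, above the rest) and Fignl1 (38.8 TPM) and Top3a (6.35 TPM) in replicate 3, below the rest. In the exon 2 line they were Rad51c in control replicate 3 (7.15 TPM, low), Exo1 in cKO replicate 4 (12.0 TPM, low) and Parp1 in control replicate 1 (125 TPM, high).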

How the results depend on the processing

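The 3 members called in the exon 2-3 line became 5 after median centring and 1 with adjusted p under 0.01, and lay between 1 and 3 with 1 library left out. Over all genes those calls went from 176 to 343 and 43, and lay between 70 and 190. The 2 called for the difference between the lines became 4 after quantile normalisation, 4 after median centring and 1 with adjusted p under 0.01, and lay between 1 and 3 with 1 library left out. Over all genes these calls went from 62 to 133, 127 and 26, and lay between 36 and 84. The 6 called between the controls became 3 after median centring, and over all genes the calls went from 1377 to 1263. Relative to Xrcc5 the 1 call became 0 at adjusted p under 0.01 and lay between 1 and 2 with 1 library left out. Over all genes those calls went from 155 to 39, and lay between 59 and 304. Relative to Parp1 the 1 call became 2 in one fit over all libraries, which added Bard1. Over all genes the calls relative to Parp1 went from 675 to 667. In the exon 2 line the count was 0 under every alternative run, where limma called between 2 and 5 of all genes, fits relative to Xrcc5 or Parp1 included.

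With the replicate block 1 member, Fignl1, was called in the exon 2-3 line and 1 for the difference between the lines. Over all genes limma then called 149 in the exon 2-3 line, against 176 without the block. For the difference between the lines it called 68, against 62 without the block. In the exon 2-3 line the block left Bard1 and Rad51c with limma adjusted p-values of 0.0529 and 0.0535. For the difference between the lines it left Bard1 with a limma adjusted p of 0.0811. The block also ended the calls of Mdm2 in the exon 2-3 line (limma adjusted p 0.0668) and of Top3a between the controls (0.0615). Deviations of libraries with the same number correlated between -0.0287 and 0.211 in the exon 2-3 line. With different numbers the range there was -0.296 to 0.199. In the exon 2 line the ranges were 0.0639 to 0.2 for the same number and -0.117 to 0.0792 for different numbers. Every exon 2 library but control replicate 4 correlated best with its own number. In the exon 2-3 line only control and cKO replicate 4 did. Whether the numbers pair the samples was not settled, and the main fits did not use them.

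No log2 fold change that turned its sign had been called in the values as deposited. With 1 library left out the ranges were -0.072 to 0.034 for Top3a in the exon 2-3 line and -0.029 to 0.044 for Lig3. In the exon 2 line they were -0.102 to 0.023 for Brip1, -0.092 to 0.02 for Exo1, -0.005 to 0.081 for Fignl1 and -0.033 to 0.059 for Top3a. For the difference between the lines they were -0.078 to 0.028 for Top3a and -0.046 to 0.066 for Xrcc5, and between the controls -0.075 to 0.015 for Fignl1. For Brip1 they were -0.084 to 0.012 relative to Xrcc5 and -0.065 to 0.06 relative to Parp1, where a pseudocount of 0.1 gave -0.024.

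Scaling turned Lig3 to -0.031 (quantile) and -0.038 (median centring), and Top3a in the exon 2 line to -4.9e-06 (quantile). Between the controls it turned Fignl1 to 0.066 (quantile), 0.147 (centring) and 0.008 (without hemoglobin), and Xrcc5 to 0.112, 0.14 and 1.5e-06. Relative to the mean of the cell cycle genes, chosen after seeing the data, the exon 2-3 values became 0.038 for Brca1, 0.189 for Brip1, 0.071 for Exo1, 0.284 for Top3a, 0.23 for Xrcc5 and 0.184 for Parp1. The cause of these turns was not tested. Depth per library is unknown, and the table was held in part, so few genes of each pathway bear on the lists.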
